A study of Mus musculus with 2 samples.

Results

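The genes described here are the nuclear genes of the respiratory chain, taken by symbol from the deposited gene values. The symbols were those of the Nduf genes of the a, b, c, s and v series, Sdha to Sdhd, the Uqcr genes and Cyc1, the Cox4 to Cox8 genes, the Atp5 genes, and Cycs and Cyct. They took 87 of 24354 genes, of which 37 belonged to complex I, 4 to complex II, 9 to complex III, 18 to complex IV, 17 to complex V and 2 to cytochrome c. The values came from 2 libraries of differentiating mouse ESCs, 1 labelled as control (Diff–CONT) and 1 as inducible Ino80 knockout (Diff–iKO). Diff–CONT ESCs carried the conditional allele Ino80 2f/2f alone, although the sample labels give their genotype as WT. Diff–iKO ESCs carried Ino80 2f/2f together with ROSA26-CreER, a Cre recombinase made from the ROSA26 locus that 4-OHTM activates. Both lines formed EBs, were attached to gelatin on day 4 and were cultured from day 5 for 7 days with BMP4 and 0.5 µM 4-OHTM, so the control cells also received the drug. Each condition had 1 library, so no replicate stands behind any difference given here, and no p-value is given. In RNA from whole cultures, fewer cells of a type and less RNA per cell cannot be told apart.

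The respiratory chain sits in the inner mitochondrial membrane. Complex I takes electrons from NADH and complex II from succinate, ubiquinone carries them to complex III, cytochrome c passes them to complex IV, and complex IV reduces oxygen to water. Complexes I, III and IV pump protons, and complex V, the ATP synthase, uses the proton gradient to make ATP. The catalytic subunits of complex IV and some subunits of complexes I, III and V are encoded in mitochondrial DNA and were not analysed here. Pluripotent stem cells are known to rely strongly on glycolysis, and the use of oxidative phosphorylation is known to increase as many lineages mature, above all in muscle.

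Whole-library facts that touch these values are few. Ino80 itself had 8.90 FPKM in the Diff–CONT-labelled library and 10.3 in the Diff–iKO-labelled one, with a log2 ratio of 0.21. The value of a whole gene does not resolve the deleted part, so it does not check the labels, and directions are given between the libraries as labelled. Where a pair of values is given, the one labelled Diff–CONT comes first. The steps in the FPKM values gave a depth on genes of about 28179589 fragments for Diff–CONT and 21926155 for Diff–iKO. These fragments set a 95% Clopper-Pearson interval, exact for counts, around the log2 ratio of a gene. It is called the counting interval here and covers counting error only. The 7 markers of undifferentiated ESCs were all higher in the Diff–iKO-labelled library, with a summed FPKM of 358 and 2534, and the 8 visceral endoderm markers were all lower, with sums of 319 and 10.2. Of 7 expressed cardiomyocyte markers 5 were lower, among them, named after their values were seen, Tnnt2, cardiac troponin T, at 14.7 and 4.17 FPKM and Tnni1 at 18.7 and 3.03. The libraries therefore differed in cell type markers as well as in respiratory chain genes, and the part of this in the values below was not tested.

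Of the 14 expressed genes of complex IV, 9 were higher and 1 was lower in the Diff–iKO-labelled library, while 5 of 37 genes of complex I, 2 of 9 of complex III, 1 of 17 of complex V and none of complex II passed the same cut-off in either direction. A gene counted as higher or lower when its fold change (FC) was at least 2 and its FPKM was at least 2 in at least 1 library. Of the 87 genes, 83 reached that FPKM, and 16 of these were higher and 3 lower, while 64 were neither. Among all 12376 genes that reached it, 6.73% were higher and 8.39% were lower. The shares among the respiratory chain genes were 19.3% and 3.61%. Most of these genes were highly expressed, 64 of them with a mean FPKM of at least 50. At that level 7.42% of all genes were higher and 3.11% were lower. The higher genes were Cox4i1, Cox5a, Cox5b, Cox6a1, Cox6c, Cox7a1, Cox7a2, Cox7c and Cox8a of complex IV, Ndufa1, Ndufa4 and Ndufb9 of complex I, Uqcr11 and Uqcrq of complex III, Atp5l of complex V, and Cyct. The lower genes were Ndufa4l2, Ndufa13 and Cox4i2. The 4 genes that did not reach the FPKM minimum were Cox6a2, Cox7b2, Cox8b and Cox8c. With each library scaled to the same sum of FPKM, which shifts every log2 ratio by -0.09, 13 genes were higher and 5 lower, as Cox7a2, Cox8a and Ndufb9 no longer passed and Ndufa2 and Sdhc became lower. Of all genes, 5.7% were then higher and 9.95% lower. Relative to the same decile of transcript length, 11 genes of the chain were higher and 4 lower, against 6.64% and 8.22% of all genes.

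The median log2 ratio of FPKM + 0.1, taken over genes whose FPKM averaged at least 1, was 0.31 for the 83 respiratory chain genes and -0.01 for all 13145 genes. It was 0.18 for complex I, -0.60 for complex II, 0.21 for complex III, 1.09 for complex IV and 0.11 for complex V. Scaled to the same sum of FPKM, the medians of complexes I, III and V were 0.08, 0.12 and 0.016. Relative to the same decile of transcript length, the median of all 83 genes was 0.19, and those of complexes I and V were 0.06 and 0.04. Without genes that have a near-identical pseudogene copy, the median of the chain was 0.18. Over structural subunits alone, that of complex V was 0.24. In summed FPKM, the genes together went from 10250 to 15165, or from 2.33% to 3.23% of all FPKM. Complex IV made up 26.9% of this sum in the Diff–CONT-labelled library and 39.99% in the Diff–iKO-labelled library. The share of complex V was 30.2% and 23.4%, that of complex I 28.0% and 24.1%, that of complex III 11.7% and 10.9%, and that of complex II 3.13% and 1.51%. Complex V thus held the largest share in one library and complex IV in the other.

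**Figure D1:**
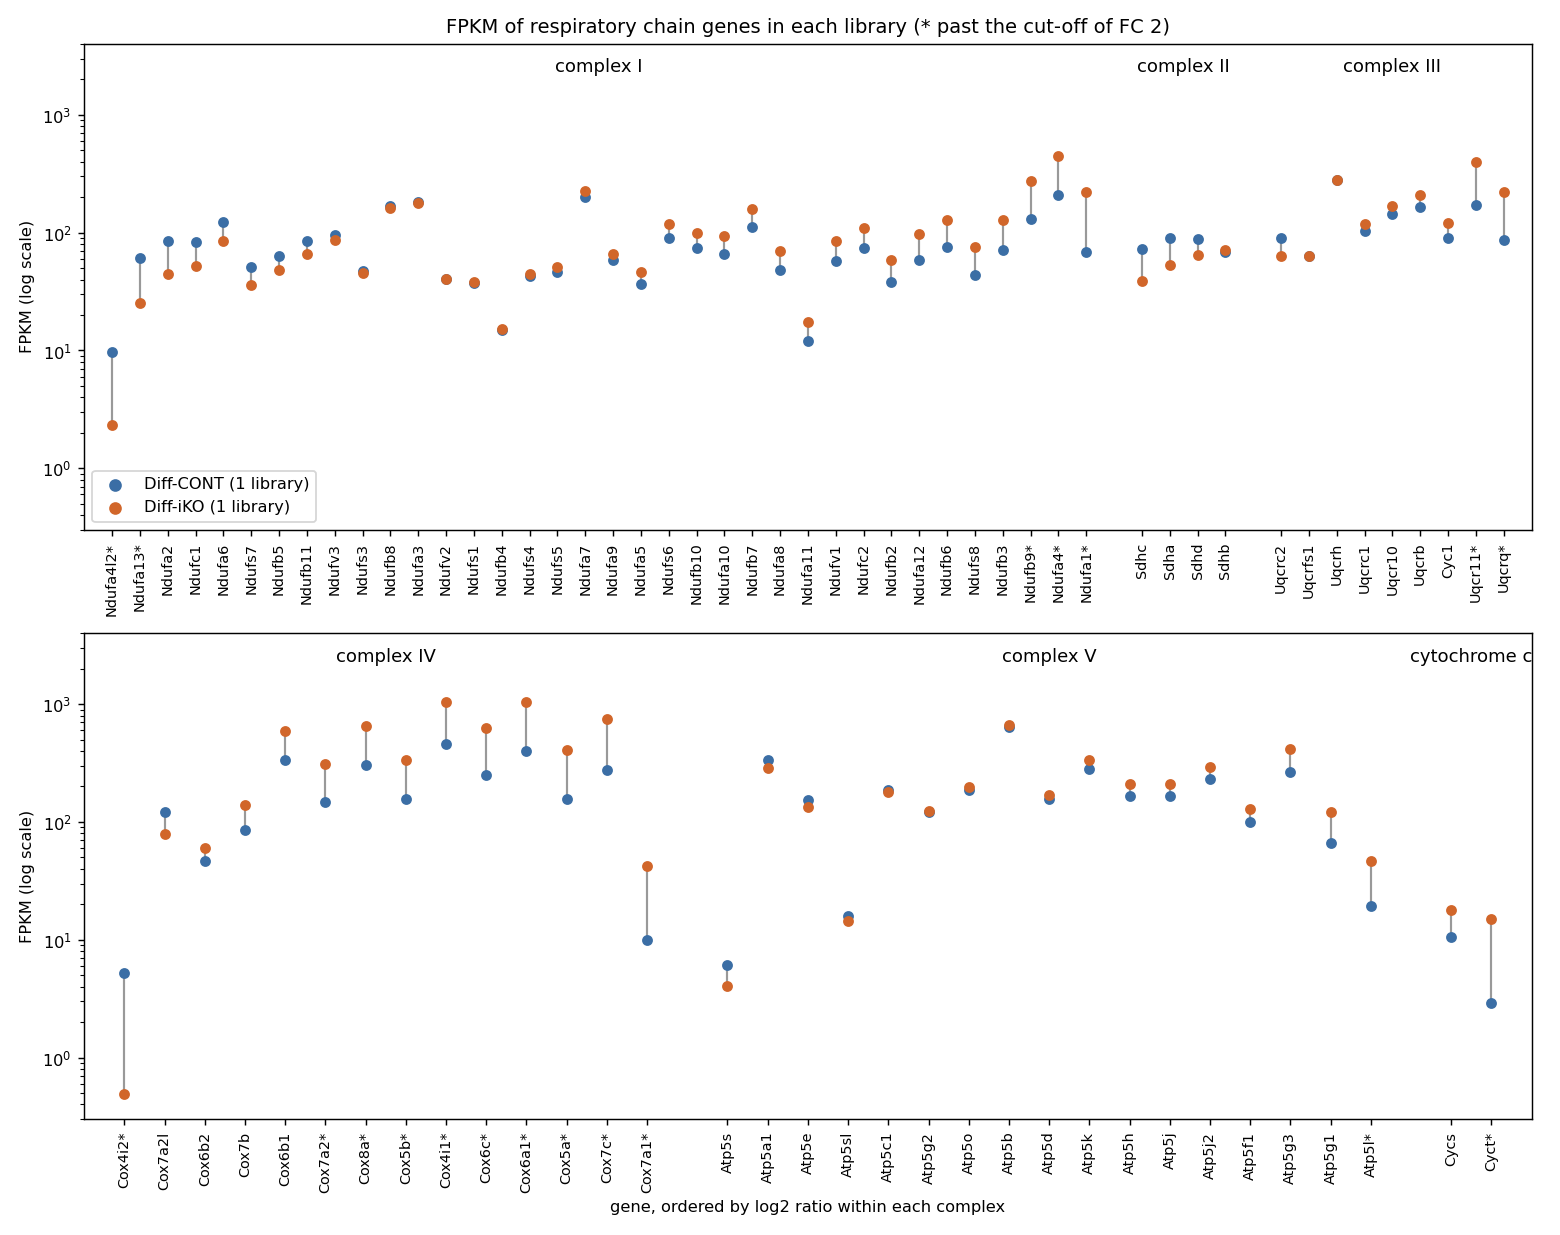
FPKM (log scale) of the respiratory chain genes that reached FPKM 2, without 1 gene of complex I that is not shown, in the libraries labelled as Diff–CONT (blue) and Diff–iKO (orange), ordered by log2 ratio within each complex; each point is 1 library, and asterisks mark the 16 higher and 3 lower genes. In complex IV the orange point lies above the blue point for 12 of 14 genes.

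Complex I, the NADH dehydrogenase, had 37 genes by symbol, all of which reached FPKM 2, and 3 were higher and 2 lower. These shares, 8.11% and 5.41%, lay near the 6.73% and 8.39% of all genes. Relative to the same decile of transcript length, 1 gene was higher and 3 were lower, or 2.7% and 8.11%. Its 7 nuclear core genes encode the subunits that carry the flavin and the iron-sulfur clusters, and none of them passed the cut-off. Their median log2 ratio was 0.02. Ndufs1 had an FPKM of 37.8 and 38.4 in the libraries labelled as Diff–CONT and Diff–iKO, and Ndufs3 of 47.5 and 45.3. Ndufv2 had 40.2 and 40.8. For these 3 genes the counting interval of the log2 ratio spanned 0. Other core genes lay to either side, with an FPKM of 43.4 and 75.5 for Ndufs8 and of 57.6 and 84.7 for Ndufv1, which binds the flavin, and of 51.2 and 35.8 for Ndufs7. The log2 ratios of these genes were 0.80, 0.56 and -0.52.

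The 28 accessory genes of complex I, which encode subunits around the core that stabilise the complex, had a median log2 ratio of 0.25. Of these, 2 were higher (7.14%) and 1 lower (3.57%), against 6.73% and 8.39% of all genes, so the higher share lay near that of all genes. Ndufa1, a small membrane subunit encoded on chromosome X from 37187588 to 37191238 (GRCm38, RefSeq), had 69.1 FPKM in the Diff–CONT-labelled library and 223 in the Diff–iKO-labelled one. Its log2 ratio of 1.69 (counting interval 1.53 to 1.85) was the highest in complex I. Ndufb9, an accessory subunit of the membrane arm, had an FPKM of 130.3 and 274, a log2 ratio of 1.07 with a counting interval from 0.99 to 1.15. Its interval therefore reached below the cut-off of 1 on the log2 scale. Ndufa13, also known as GRIM-19, had an FPKM of 60.6 and 25.1 and a log2 ratio of -1.27. Among the genes short of the cut-off, Ndufb3 had 71.6 and 129, and Ndufa2 had 84.3 and 44.7, with log2 ratios of 0.85 and -0.91. Accessory genes of the same complex thus lay on both sides, 19 above 0 and 9 below.

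Ndufa4 and Ndufa4l2 carry complex I symbols, but the Ndufa4 protein is now known as a subunit of complex IV and Ndufa4l2 is its paralog, known as a target of the hypoxia factor HIF-1. Ndufa4 had 209 FPKM in the Diff–CONT-labelled library and 446 in the Diff–iKO-labelled one, a log2 ratio of 1.10 (counting interval 1.03 to 1.17). Ndufa4l2 had 9.64 and 2.34, from about 215 and 39 fragments, a log2 ratio of -2.04 (counting interval -2.57 to -1.54). The paralogs lay in opposite directions, and Ndufa4l2 made up 4.41% of their summed FPKM in one library and 0.522% in the other. With Ndufa4 counted in complex IV, that complex had 10 higher genes of 15 and a median of 1.09, and complex I had 2 higher of 36 and a median of 0.17.

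Complex II, the succinate dehydrogenase, is shared with the citrate cycle, and its 4 genes are the whole complex. None passed the cut-off. Sdha, the flavin subunit, had 90.1 FPKM in the Diff–CONT-labelled library and 53.6 in the Diff–iKO-labelled one, with a log2 ratio of -0.75 (counting interval -0.81 to -0.69). Sdhb, the iron-sulfur subunit, had 68.7 and 71.8. Sdhc and Sdhd, which anchor the complex in the membrane, had 73.3 and 38.6, and 88.1 and 64.6. Their log2 ratios were -0.92 and -0.45. Sdhc was the gene nearest below the cut-off, with a fold change of 1.90 towards the Diff–CONT-labelled library, and in this complex 3 of 4 genes had a ratio below 0. In summed FPKM complex II had 320.3 and 229, so it was the complex with the lower sum in the Diff–iKO-labelled library. The levels of its subunits spanned 1.31-fold in the Diff–CONT-labelled library and 1.86-fold in the other.

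Complex III passes electrons from ubiquinone to cytochrome c, and 2 of its 9 genes were higher and none was lower. The higher share was 22.2%, against 6.73% of all genes, and 8.39% of all genes were lower. The subunits that carry the redox centres had an FPKM of 90.3 and 121 for Cyc1, cytochrome c1, and of 63.4 and 63.0 for Uqcrfs1, the Rieske iron-sulfur protein. The core proteins Uqcrc1 and Uqcrc2 had 104 and 118, and 90.2 and 62.9. None of these genes passed the cut-off. The 2 higher genes were among the 5 small subunits. Uqcr11 had 172 FPKM in the Diff–CONT-labelled library and 401 in the Diff–iKO-labelled one, a log2 ratio of 1.22 (counting interval 1.12 to 1.32). Uqcrq had 87.5 and 222, a log2 ratio of 1.34 (1.28 to 1.40). The other small subunits had 281 in both libraries for Uqcrh, the hinge protein, 165 and 210.3 for Uqcrb, and 145 and 168 for Uqcr10.

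Cytochrome c is made from Cycs in somatic cells and from Cyct in the testis. Cycs had 10.6 FPKM in the Diff–CONT-labelled library and 17.9 in the Diff–iKO-labelled one, a log2 ratio of 0.76 that did not pass the cut-off. Cyct, on chromosome 2 from 76353942 to 76360453, had 2.90 and 15.1, from about 40 and 158 fragments. Its log2 ratio of 2.38 (counting interval 1.88 to 2.92) was the highest of the 83 genes, and its share of the summed FPKM of the pair was 21.5% and 45.7%. Of 6 male germ cell markers, 2 reached FPKM 2 and both were higher, with a summed FPKM of 2.55 and 9.86 over the list, and the sperm markers Prm1 and Tnp1 were listed at 0 in both libraries. The part of such cells in the Cyct value was not tested.

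Complex IV, cytochrome c oxidase, had 14 genes with an FPKM of at least 2, of which 9 were higher, 1 was lower and 4 were neither. That is 64.3% higher, against 6.73% of all genes tested. The count fell to 7 of 14 with each library scaled to the same sum of FPKM, against 5.7% of all genes, and to 6 of 14, or 42.9%, relative to the same decile of transcript length, against 6.64%. Among the 350 genes of the shortest decile of transcript lengths with a mean FPKM of at least 50, 12% were higher. These 350 include genes of complex IV themselves. The 10 genes for subunits that most tissues use were Cox4i1, Cox5a, Cox5b, Cox6a1, Cox6b1, Cox6c, Cox7a2, Cox7b, Cox7c and Cox8a. All of these had a log2 ratio above 0, between 0.70 and 1.43, and 8 of them were past the cut-off. Their summed FPKM was 2572 in the Diff–CONT-labelled library and 5882 in the Diff–iKO-labelled one, a ratio of 2.29. In the Diff–iKO-labelled library 2 of them, Cox4i1 and Cox6a1, had an FPKM above 1000.

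Cox4i1, the largest nuclear subunit, is encoded on chromosome 8 from 120668225 to 120674209. Its FPKM was 457 in the Diff–CONT-labelled library and 1036 in the Diff–iKO-labelled one, a log2 ratio of 1.18 (counting interval 1.14 to 1.22). Cox5a and Cox5b, which face the matrix, had 156 and 412, and 157 and 335. Their log2 ratios were 1.40 and 1.09. Cox6a1 had 398 and 1037, Cox6c had 251 and 622, and Cox7c had 277 and 745. These are small membrane subunits, and with Cox5a they had the highest ratios of the common subunits, at 1.38, 1.31 and 1.43. Cox7a2 had 147 and 311, and Cox8a had 306 and 652. Their log2 ratios of 1.08 and 1.09 had counting intervals from 1.00 to 1.16 and from 1.03 to 1.16, so they lay close to the cut-off. The common subunits that did not pass it were Cox6b1, on the intermembrane side, with 337 and 595, and Cox7b with 85.4 and 139. Their log2 ratios were 0.82 and 0.70.

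Cox7a2l, which links complexes III and IV into supercomplexes and is not a standard subunit of either, had an FPKM of 121 and 78.6 and a log2 ratio of -0.62, against the direction of the common subunits. The SD of log2 ratios was 1.33 over the 14 genes of complex IV, 0.70 in complex I, 0.43 in complex II, 0.59 in complex III and 0.44 in complex V. Without the gene farthest from the median of each complex, it was 0.64 over 13 genes of complex IV, where that gene is Cox4i2, and 0.60, 0.24, 0.49 and 0.36 in complexes I, II, III and V. These SDs describe differences between genes and are not errors of a measurement.

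**Figure D2:**
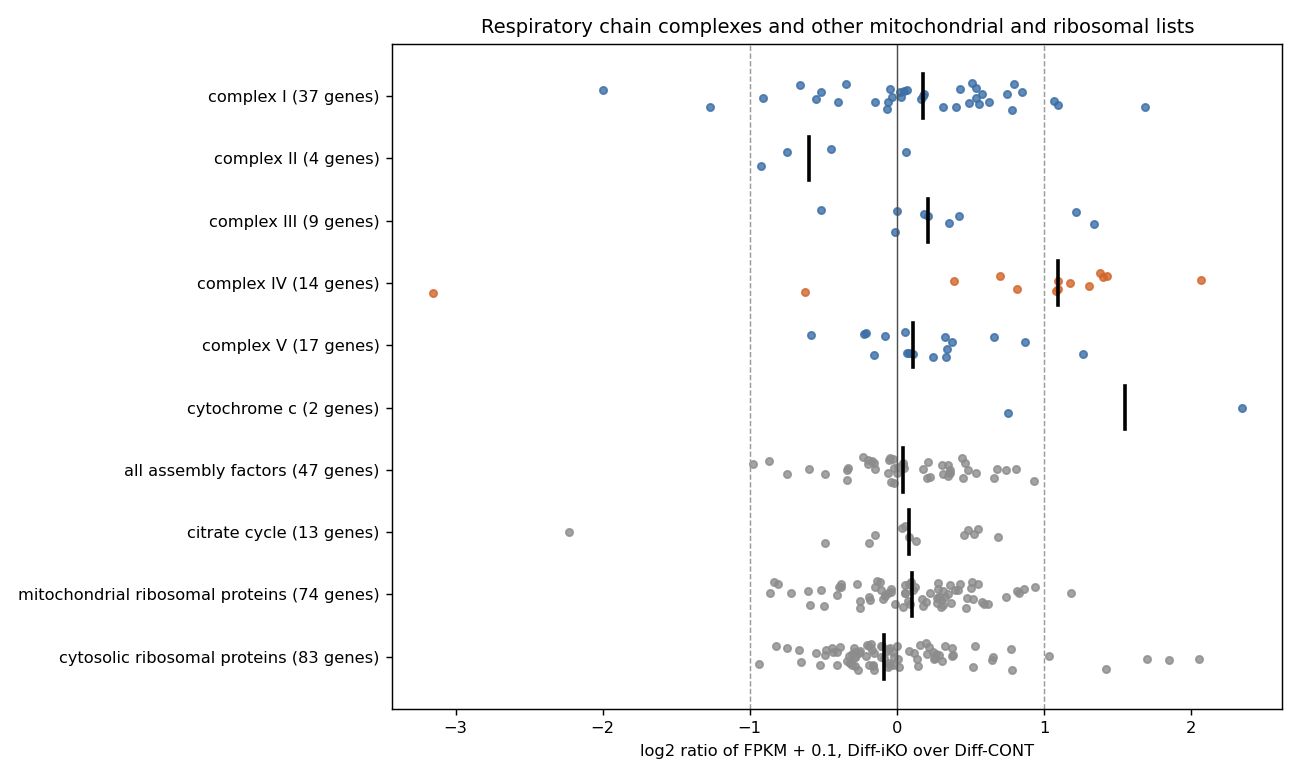
Log2 ratio of FPKM + 0.1 (Diff–iKO-labelled over Diff–CONT-labelled) for the genes of each complex, of cytochrome c and of 4 comparison lists; each point is 1 gene with a mean FPKM of at least 1, the black bar is the median, and dashed lines mark FC 2. The complex IV median lies at 1.09, past the upper dashed line, and the medians of complexes I, III and V lie between 0.11 and 0.21.

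The 250 bases before the start of 5 genes are shown so that members that lay high together can be read side by side with one that did not. They are from RefSeq on GRCm38.p6, on the strand of the gene, 5′ to 3′, and capitals mark matches to the NRF1 motif, which reads GCGC, then any base, then TGCGC, on either strand. NRF1 is a transcription factor known to bind many genes of the respiratory chain. Cox6a1 (chr5:115348959-115349208, minus strand) holds 2 matches, which begin 162 and 117 bases before the start.
Cox6a1: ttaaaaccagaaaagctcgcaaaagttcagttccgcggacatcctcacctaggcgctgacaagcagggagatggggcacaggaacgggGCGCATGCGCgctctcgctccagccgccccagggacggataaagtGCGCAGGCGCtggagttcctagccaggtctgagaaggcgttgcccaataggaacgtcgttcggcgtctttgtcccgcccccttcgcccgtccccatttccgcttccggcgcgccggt
Cox7c: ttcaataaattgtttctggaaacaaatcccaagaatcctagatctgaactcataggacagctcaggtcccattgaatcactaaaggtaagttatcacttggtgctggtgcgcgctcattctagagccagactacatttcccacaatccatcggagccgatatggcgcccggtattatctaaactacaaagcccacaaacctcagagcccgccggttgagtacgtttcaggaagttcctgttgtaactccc
Cox8a: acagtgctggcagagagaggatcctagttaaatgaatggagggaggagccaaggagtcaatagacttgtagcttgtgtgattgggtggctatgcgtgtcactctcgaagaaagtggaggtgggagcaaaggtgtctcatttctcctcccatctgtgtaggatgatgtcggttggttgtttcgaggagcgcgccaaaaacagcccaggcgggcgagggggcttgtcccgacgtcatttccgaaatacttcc
Cox7a1: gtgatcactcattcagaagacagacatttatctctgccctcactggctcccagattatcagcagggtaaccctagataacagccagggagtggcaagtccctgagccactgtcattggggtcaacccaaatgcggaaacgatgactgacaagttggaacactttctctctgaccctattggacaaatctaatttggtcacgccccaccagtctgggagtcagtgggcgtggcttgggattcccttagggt
Sdha: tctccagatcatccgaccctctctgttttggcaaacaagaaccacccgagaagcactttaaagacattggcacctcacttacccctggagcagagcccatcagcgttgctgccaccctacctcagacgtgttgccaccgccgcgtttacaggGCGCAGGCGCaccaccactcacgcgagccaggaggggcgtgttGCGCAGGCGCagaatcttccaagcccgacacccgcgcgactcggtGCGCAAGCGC
Cox7c (chr13:86046796-86047045, minus strand), Cox8a (chr19:7217617-7217866, minus strand) and Cox7a1 (chr7:30183921-30184170, plus strand) hold none in these bases, and Sdha (chr13:74350241-74350490, minus strand) holds 3, at 98, 55 and 10 bases. Their base composition differed, with 26 CG dinucleotides in Cox6a1, 9 in Cox7c, 11 in Cox8a, 4 in Cox7a1 and 21 in Sdha. Of Cox6a1, Cox7c and Cox8a, whose log2 ratios lay between 1.09 and 1.43, Cox6a1 thus held an NRF1 match in these bases, and Cox7c and Cox8a did not. Cox7a1, with a log2 ratio of 2.08, held none, and Sdha, with a log2 ratio of -0.75, held 3. These 5 genes were picked with their ratios known, and the part of NRF1 in the ratios was not tested.

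Over 71 of the 87 genes that have a RefSeq promoter sequence, motifs were searched on both strands from 250 bases before to 50 after the start. A promoter could hold several motifs and was counted once for each. The NRF1 motif was found in 17 genes (23.9%), against 11.3% of 10422 expressed genes and 5.19% of all 27025 genes. It was found in 7 of 32 genes of complex I, 2 of 3 of complex II, 1 of 5 of complex III, 1 of 13 of complex IV and 6 of 16 of complex V. The YY1 motif AAGATGG was found in 16.9% of the 71 genes and 8.21% of expressed genes, the SP1 motif GGGGCGGGG in 16.9% and 25.8%, the GABP motif CCGGAAGT in 7.04% and 8.87%, and the ERRA motif TCAAGGTCA in 2.82% and 0.307%. Of the 13 complex IV genes, 1 each held the GABP, YY1 and SP1 motifs and none held that of ERRA. The median log2 ratio was 0.18 over the 17 genes with an NRF1 match and 0.38 over the 52 without. Of the genes with a match, 1 belonged to complex IV, whose median was 1.09, and 6 to complex V, at 0.11. Motif and complex therefore cannot be told apart in these medians. A match is a description of letters and not of binding, and a missing match says only that these letters are not in this window.

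The isoforms of complex IV that are known from particular tissues lay in both directions. Cox4i2, known from the lung and from the response to low oxygen, lies on chromosome 2 from 152753916 to 152765039. It had 5.18 FPKM in the Diff–CONT-labelled library and 0.492 in the Diff–iKO-labelled one, from about 83 and 6 fragments. Its log2 ratio of -3.39 (counting interval -4.88 to -2.21) was the lowest of the 83 genes. With a pseudocount of 1 on both values the ratio was -2.05, which lies outside that interval. The share of Cox4i2 in the summed FPKM of Cox4i1 and Cox4i2 was 1.12% and 0.0475%, so Cox4i1 was by far the larger part in both libraries. Cox4i2 reached FPKM 2 in 1 library alone, so it could enter the counts only as lower.

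Cox7a1 is the isoform of heart and skeletal muscle and Cox7a2 that of most other tissues. Cox7a1, on chromosome 7 from 30184171 to 30186030, had 9.93 FPKM in the Diff–CONT-labelled library and 41.8 in the Diff–iKO-labelled one, from about 60 and 190 fragments. Its log2 ratio was 2.08 (counting interval 1.65 to 2.52), the highest of complex IV. Its share in the summed FPKM of Cox7a1 and Cox7a2 was 6.33% and 11.9%, with both genes higher. The other muscle isoforms were near 0, with an FPKM of 0.282 and 0.281 for Cox6a2 and 0 in both libraries for Cox8b. Muscle markers did not move together. Of the 14 cardiomyocyte markers, 7 reached FPKM 2, of which none was higher and 5 were lower, with a summed FPKM of 78.5 and 26.0, and Pln was at 0.0154 and 0. Of 7 skeletal muscle markers, 3 reached FPKM 2 and 2 of these, Acta1 and Mylpf, were higher, with sums of 45.2 and 248 over the list, and Myod1 was at 0.0599 and 0. The part of muscle cells in the Cox7a1 value was not tested.

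The isoforms of complex IV known from the testis are Cox6b2, Cox7b2 and Cox8c. Cox6b2 had an FPKM of 46.3 and 60.6 and made up 12.1% and 9.25% of the summed FPKM of Cox6b1 and Cox6b2. Cox7b2 had 0.187 and 0.124, from about 2 fragments and 1 fragment. Cox8c was at 0 in the Diff–CONT-labelled library and at 0.304 in the Diff–iKO-labelled library, which is about 2 fragments, so no fold is given. At this depth a difference in Cox6a2, Cox7b2, Cox8b and Cox8c was not detectable.

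**Figure D3:**
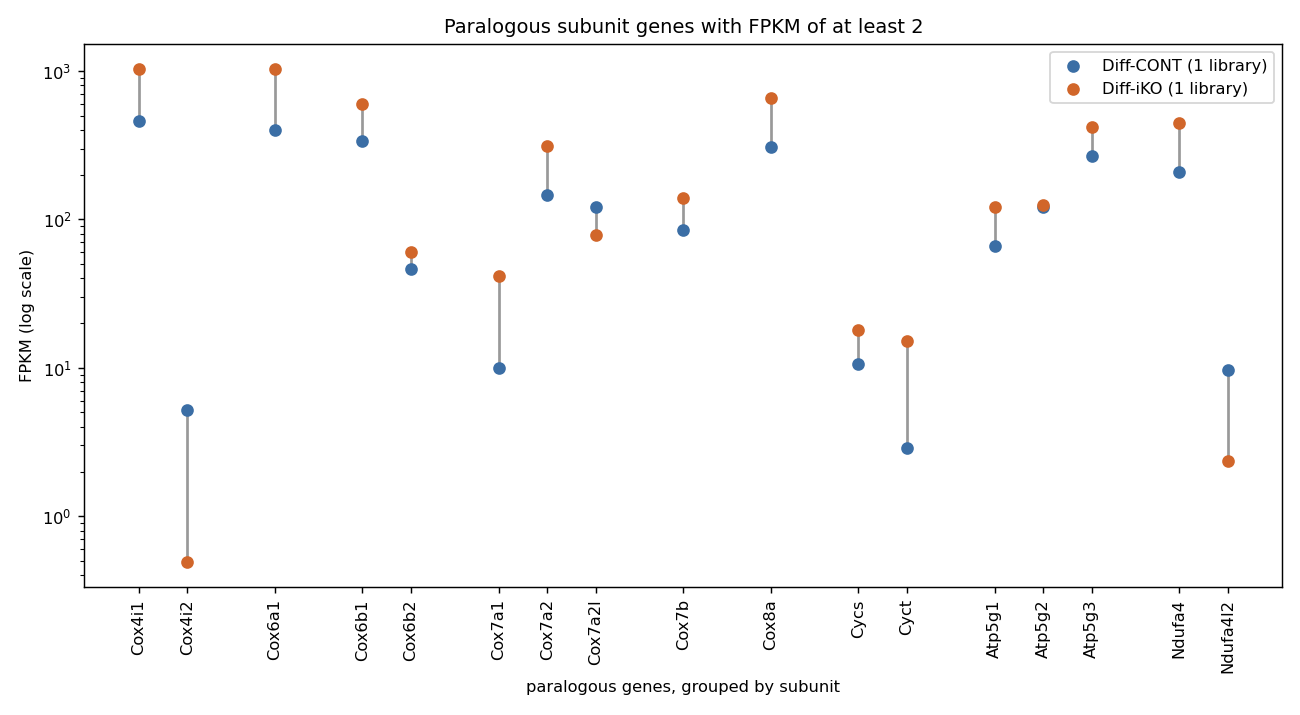
FPKM (log scale) of paralogous subunit genes with an FPKM of at least 2 in at least 1 library, grouped by subunit, in the libraries labelled as Diff–CONT (blue) and Diff–iKO (orange), 1 library each. Cox4i2 falls from 5.18 to 0.492 and Ndufa4l2 from 9.64 to 2.34, while Cox7a1 and Cyct lie at 41.8 and 15.1 in the Diff–iKO-labelled library against 9.93 and 2.90.

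Complex V, the ATP synthase, had 17 genes, and 1 was higher and none was lower. The higher share, 5.88%, lay near the 6.73% of all genes, and 8.39% of all genes were lower. Of its F1 head, which makes ATP, Atp5b (beta) had 634 FPKM in the Diff–CONT-labelled library and 670.4 in the Diff–iKO-labelled one, and Atp5a1 (alpha) had 335 and 288. The median log2 ratio of the 5 F1 genes was -0.08. That of the 4 genes of the peripheral stalk, Atp5f1, Atp5h, Atp5j and Atp5o, was 0.33, with ratios from 0.07 to 0.37. Head and stalk genes did not pass the cut-off. The genes Atp5g1, Atp5g2 and Atp5g3 encode the same mature subunit of the proton-driven c ring. Atp5g1 had 66.5 and 122, Atp5g2 120.3 and 125, and Atp5g3 266 and 420.0. Atp5g3 was the largest part of their sum, at 58.7% and 63.0%, and the share of Atp5g2 was 26.6% and 18.7%.

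Of the small membrane subunits of complex V, Atp5l was the 1 gene past the cut-off, with an FPKM of 19.5 and 46.9 and a log2 ratio of 1.27 (counting interval 1.02 to 1.52). Atp5l has 9 pseudogene transcripts that are near-identical to it, and its level was below those of its partners Atp5k, with 284 and 336, and Atp5j2, with 232 and 293. Atp5s and Atp5sl carry Atp5 symbols but are not subunits of the synthase. They had 6.16 and 4.08, and 15.9 and 14.3. Without them the median of complex V was 0.24.

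The fold changes nearest the cut-off were 2.10 for Ndufb9, 2.12 for Cox7a2 and 2.13 for Cox8a among the higher genes. Just short of it were Atp5g1 at 1.83 and Ndufb3 at 1.80. On the lower side, Sdhc at 1.90 and Ndufa2 at 1.89 were just short of it, while Ndufa13 at 2.41 was the nearest that passed.

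Factors that assemble the chain but are not part of it did not pass the cut-off. The 7 Ndufaf genes found, which encode assembly factors of complex I, had a median log2 ratio of 0.18, and none was higher or lower. Ndufaf2 had the highest level, with an FPKM of 24.2 and 33.1, and Ndufaf4 the highest log2 ratio, 0.55, with 4.99 and 7.30. Ndufaf1 had 11.5 and 13.0, Ndufaf3 10.2 and 10.5, Ndufaf5 3.27 and 3.14, Ndufaf6 6.17 and 6.06, and Ndufaf7 9.74 and 12.5. The median FPKM of the complex I genes was 66.3 and 75.5, so the assembly factors had the lower levels per length. Ndufaf8 was not analysed here. The 20 assembly factors of complex IV with a mean FPKM of at least 1 had a median of 0.02 where the complex IV genes had 1.09, and none passed. Named after their values were seen, as the extremes of that list, Sco2, which delivers copper, had 10.4 and 19.9, and Coa4 had 10.6 and 5.35. Over assembly factors of all complexes, 0 of 46 that reached FPKM 2 were past the cut-off, where 15.1% of all genes were, and the median was 0.04.

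Other lists of nuclear genes for mitochondria had medians between -0.12 and 0.15. Of 13 genes of mitochondrial transcription and its regulators that reached FPKM 2, none passed. Nrf1 had an FPKM of 15.0 in both libraries, Tfam, which packages and transcribes mitochondrial DNA, had 14.4 and 13.5, and Gabpa had 16.2 and 21.7. Ppargc1a, the coactivator PGC-1 alpha, was below FPKM 2 with 1.16 and 0.391. Of 13 citrate cycle genes, 1 was lower, Suclg2 with 25.3 and 5.32, a subunit of succinyl-CoA synthetase. Of 11 genes of ubiquinone synthesis, Pdss1 was higher with 3.17 and 6.67 and Coq9 was lower with 18.7 and 7.13. Of 18 genes of protein import and the outer membrane none passed. The 74 mitochondrial ribosomal protein genes had a median of 0.10 with 1 higher (1.35%). The 83 cytosolic ribosomal protein genes, which are also short and highly expressed, had a median of -0.08 with 5 higher (6.02%). In the citrate cycle list 7.69% were lower, and in the ubiquinone list 9.09% were higher and 9.09% lower. Of all genes that reached FPKM 2, 6.73% were higher and 8.39% lower.

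Respiratory chain transcripts are short, and short transcripts had a different background in these libraries. Of the 83 genes, 57 had a transcript in the shortest decile of expressed genes, from 77 to 1037 nucleotides. In that decile the median log2 ratio of all 1302 genes was 0.12, and 12.8% of 1220 tested genes were higher and 8.36% were lower. The median was 0.43 for the 57 respiratory chain genes, 0.36 for the 28 of complex I and 1.09 for the 13 of complex IV. Relative to the median of all genes of the same decile, 11 of the 83 genes were higher and 4 lower, and the median of complex IV was 0.97. Cox5b, Cox7a2, Cox8a, Ndufa4 and Ndufb9 were no longer past the cut-off on that scale and Ndufa2 became lower. The value of 1 fragment in FPKM was 1.32 times as large in the Diff–iKO-labelled library as in the other over 3 genes with transcripts of 300 to 500 nucleotides, and 1.34 times over 39 genes with transcripts over 2000.

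**Figure D4:**
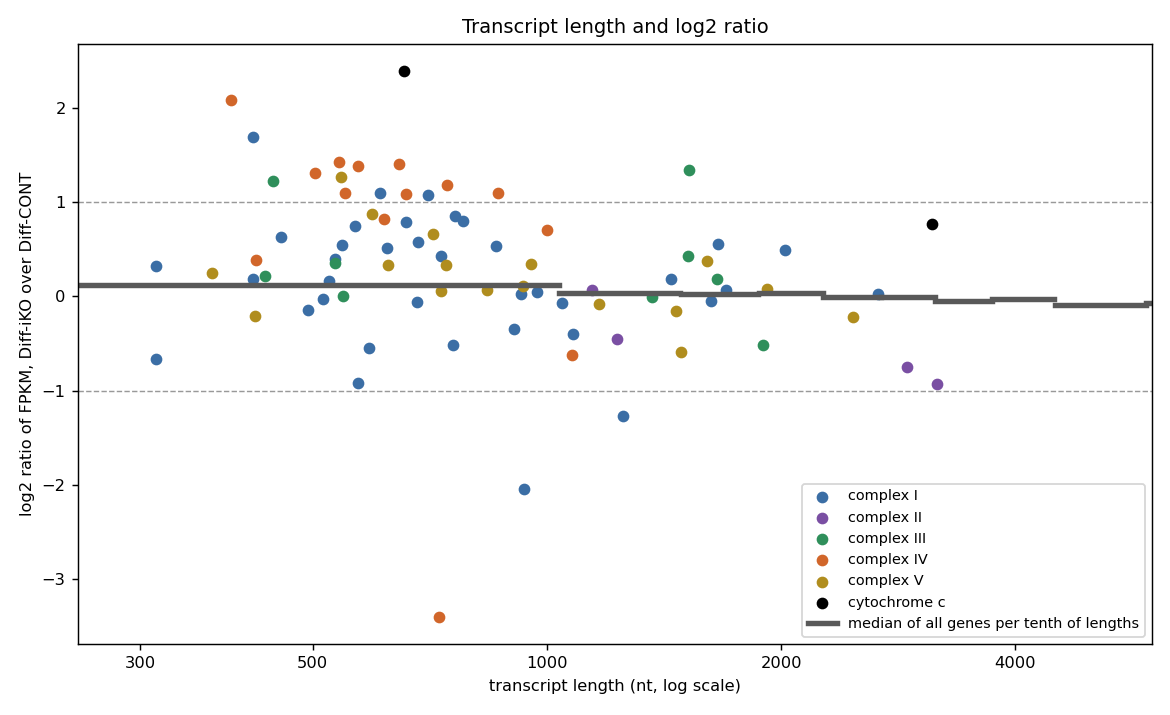
Log2 ratio of FPKM (Diff–iKO-labelled over Diff–CONT-labelled) against transcript length in nucleotides (log scale), 1 point per respiratory chain gene, coloured by complex; grey steps are the median of all genes in each decile of lengths, and dashed lines mark FC 2. The grey steps lie between -0.09 and 0.12, and most complex IV genes lie near or above 1 among transcripts of 1037 nucleotides or less.

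Many respiratory chain genes have processed pseudogenes, so reads can be shared between near-identical copies. Of the 83 genes, 22 had a pseudogene transcript of at least 95% identity over at least 100 bases, among them 4 of the 19 genes past the cut-off, namely Atp5l, Cox6c, Cox7c and Uqcr11. Cycs, which did not pass, has 3 such copies. The values of these genes are uncertain to that extent. In complex IV, the 10 genes without such a copy had a median of 1.09 with 7 higher, and the 4 with a copy a median of 1.00 with 2 higher. Exons of 27 of the 87 genes overlapped an exon of another gene, and 6 of the 19 genes past the cut-off were among them. For Cox4i1 the overlap was 154 nucleotides with Emc8 on the opposite strand, whose FPKM was 9.95 and 14.7. For Ndufa13 it was 375 nucleotides with Tssk6, with 0.0894 and 0.398, and for Ndufa4l2 it was 32 nucleotides with Shmt2, with 44.1 and 53.3. Atp5l, Cox5a and Ndufb9 overlapped predicted genes, and how the authors' counting treated strand is not given in the sources used here.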

How the data were processed

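Poly(A) RNA of 2 libraries, 1 per condition, was prepared (TruSeq Stranded, 1 µg of input) and read from both fragment ends. Per gene, the authors deposited FPKM, which counts fragments per kilobase of a transcript after scaling each library. The submitters' processing notes name STAR 2.7.9a, mm10, Cuffnorm and Cufflinks 2.2.1, and the gene annotation and strand setting are not given in the sources used here. Column names tied the 2 value columns to the libraries, and 0 further value columns were left unused.

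From these values, log2 ratios (Diff–iKO-labelled over Diff–CONT-labelled) were computed, without a pseudocount for single genes and with 0.1 for list medians. The cut-off, FC ≥ 2 and FPKM ≥ 2, is that of the paper's methods. No test of conditions is possible with 1 library each. Genes were matched by symbol or synonym to RefSeq (GRCm38.p6), which gave all 87 members a transcript length. Members and gene lists were chosen with earlier results of these data known.

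Depth was recovered from low FPKM values of genes with 1 transcript, in which 1 fragment is worth a fixed amount divided by transcript length less 190 nucleotides. Of 1298 and 1436 low values, 87.3% and 86.4% were whole multiples within 0.2, against 40% by chance. Fragments per gene are approximate where a gene has several transcripts, and intervals cover counting error only. Pseudogene copies and exon overlaps were found with BLAST+ 2.17.0 and GENCODE vM21. Named genes were all members past the cut-off, the highest level and the 2 highest and 2 lowest ratios of each complex, the isoform sets, the Sdh, core, redox and F1 alpha and beta genes, Ndufaf genes, other listed genes past the cut-off and X-linked members. A few further genes, such as members of the peripheral stalk and regulators, were named after their values were seen. The steps were tested on simulated data. Alternatives were other pseudocounts, filters, FC 1.5, 3 scalings, structural subunits alone, and, chosen after seeing the data, Ndufa4 in complex IV and genes without pseudogene copies. The software was scipy 1.17.1, pandas 2.3.3, numpy 2.4.6 and matplotlib 3.10.9 under Python 3.11.15. The values of 1 complex I gene are not reported here, although it counts in the lists.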

Additional observations from a re-analysis of the deposited data

How the results depend on the processing

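No paired analysis was possible because each condition had 1 library. The direction of every complex median held under every alternative run. With each library scaled to the same sum of FPKM, the medians of complexes I to V were 0.08, -0.69, 0.12, 1.00 and 0.016, and 5 genes were lower in place of 3. Relative to the same decile of transcript length, the median of all 83 genes was 0.19, and those of complexes I, IV and V were 0.06, 0.97 and 0.04. Without genes that have a near-identical pseudogene copy, chosen after seeing the data, the median of all genes of the chain was 0.18. With structural subunits alone the complex V median was 0.24. At FC 1.5, 26 genes were higher and 9 lower, and the share of all genes at that cut-off was not computed. Pseudocounts of 0.1 and 1 and a median ratio set to 0 changed no call. Among 58 named genes with a ratio, the ratio moved beyond its counting interval in 27 under the same-sum scaling, in 18 under the length scaling and in 2 with a pseudocount of 1, Cox4i2 at -2.05 and Suclg2 at -2.06. The causes of these shifts, beyond the construction of each alternative, were not tested. Depth limits the 4 genes under FPKM 2, and the absence of replicates limits every value.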

Other observations

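The respiratory chain genes on chromosome X were Cox7b, Ndufa1 and Ndufb11. Their FPKM was 85.4 and 139, 69.1 and 223, and 84.3 and 66.2 in the libraries labelled as Diff–CONT and Diff–iKO, so Ndufa1 was past the cut-off and the others were not. The median log2 ratio of these 3 genes was 0.70, and that of 477 X-linked genes was 0.16. Xist, the RNA that coats an inactive X chromosome, had 0.0639 FPKM in the Diff–CONT-labelled library and 3.59 in the Diff–iKO-labelled one. Its log2 ratio of 5.81 (counting interval 5.33 to 6.35) was past the cut-off, and its part in these values was not tested.

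Subunits that are present in equal numbers in complex III were not equal in RNA. FPKM in the Diff–CONT-labelled library ran from 63.4 for Uqcrfs1 to 281 for Uqcrh, a span of 4.43-fold, and in the Diff–iKO-labelled library the span of the complex was 6.37-fold. The ends of that span were Uqcrc2 at 62.9 and Uqcr11 at 401, and Uqcr11 has 2 near-identical pseudogene copies. FPKM is scaled per length, but levels of genes with such copies are uncertain, so these spans are approximate.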
